A study of Mus musculus with 3 samples.

Results

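The miRNAs of white blood cells and of inflammation were examined in mouse plasma, as 9 mature miRNAs picked by name out of 1900 miRNA probes on the array. By known role they were grouped as haematopoietic and myeloid (mmu-miR-142a-3p, mmu-miR-142a-5p and mmu-miR-223-3p), lymphoid (mmu-miR-150-5p and mmu-miR-155-5p) and induced in inflammation (mmu-miR-146a-5p, mmu-miR-146b-5p, mmu-miR-21a-5p and mmu-miR-21a-3p). All 9 probe names were found on each array, and the prefix mmu, for mouse, is left out where a name recurs. Male C57BL/6 mice, an inbred laboratory strain, aged 8 weeks and fasted overnight, were kept in normal cages as controls, given aerobic exercise or given resistance exercise. Blood was drawn 3 h after the bout in the exercised animals, and plasma of 3 mice per group was combined into a single pool of 300 µl. Each pool was hybridised to 1 array, so nothing was replicated and no difference below carries a test or a p-value. The labels used here do not describe the exercise regimens.

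A miRNA is a short RNA that guides an Argonaute protein to messenger RNAs, mostly through its seed, the bases near its 5′ end. miR-223 is abundant in neutrophils and monocytes, and miR-142 is made in nearly all blood cell lineages. miR-150 marks mature lymphocytes, where it represses the transcription factor Myb. miR-155 is switched on when lymphocytes and macrophages are activated. miR-146a is induced by NF-κB and represses the signalling proteins Traf6 and Irak1, and miR-146b shares its seed. miR-21 is made in many cell types, increases in inflammation and represses Pdcd4. Platelets also carry miR-223 and miR-21. In plasma, more source cells, more release per cell and cell lysis during sampling cannot be told apart.

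The mature sequences show which members a probe or a target could confuse. They are RefSeq's, in the build GRCm38.p6, matched by name for 8 of the 9 members, with the seed (bases 2 to 8) in capitals.
mmu-miR-142a-3p: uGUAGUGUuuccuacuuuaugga
mmu-miR-142a-5p: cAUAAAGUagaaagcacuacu
mmu-miR-223-3p: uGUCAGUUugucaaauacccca
mmu-miR-155-5p: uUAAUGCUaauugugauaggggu
mmu-miR-146a-5p: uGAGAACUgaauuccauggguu
mmu-miR-146b-5p: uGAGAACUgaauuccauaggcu
mmu-miR-21a-5p: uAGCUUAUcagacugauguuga
mmu-miR-21a-3p: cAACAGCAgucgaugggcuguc

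Among these sequences the only seed found more than once was that of miR-146a-5p and miR-146b-5p. They were identical at 20 of 22 bases and differed by G18A and U21C, counted from 1 at the 5′ end with the miR-146a-5p base first. Their probes are separate, but the files do not give probe sequences, so signal shared between them cannot be told apart. miR-146a-5p lies on the minus strand at chr11:43374435-43374456 and miR-146b-5p on the plus strand at chr19:46342790-46342811. Both arms of miR-142a come from the plus strand, the 5p arm at chr11:87756867-87756887 and the 3p arm at chr11:87756903-87756925. miR-223-3p lies at chrX:96242884-96242905 on the plus strand, within the long non-coding gene F630028O10Rik. miR-155-5p lies at chr16:84714143-84714165 on the plus strand, within its host gene Mir155hg. The miR-21a arms lie on the minus strand, at chr11:86584120-86584141 (5p) and chr11:86584082-86584103 (3p), and the hairpin overlaps the protein-coding gene Vmp1. miR-150 is on chromosome 7.

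Raw intensity is the brightness of a spot in arbitrary units, and a probe counted as detected where it exceeded the mean of its array's blank spots by 2 SD of those spots. That threshold was 94.83 for the control array, 99.02 for the aerobic array and 96.95 for the resistance array. Of the 9 miRNAs 8 were detected on all arrays, and 6 exceeded the blanks by 10 SD on all arrays. Of all 1900 miRNA probes 1296 were detected on all arrays, and at 10 SD no such count was made. The raw intensities of the members ran from 93.6 to 504.9. Between pools, differences are given in normalized log2 intensity. The only error that can be measured is the scatter of repeated spots. For spike-in spots, 2 SD of a difference came to 0.32 on the log2 scale, a fold of 1.25. Those spots are far brighter than any member, with mean raw intensities from 12526 to 19095. Repeats of a dim control probe, S-Probe7, with means from 121.1 to 127.7, gave 0.43, a fold of 1.35, an estimate chosen after seeing the data. Repeats of Negative Control 1, dimmer still with means from 104.8 to 108.9, gave 0.77, a fold of 1.71, which no member passed in any comparison. None of these limits covers differences between mice, pools or hybridisations.

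**Figure D1:**
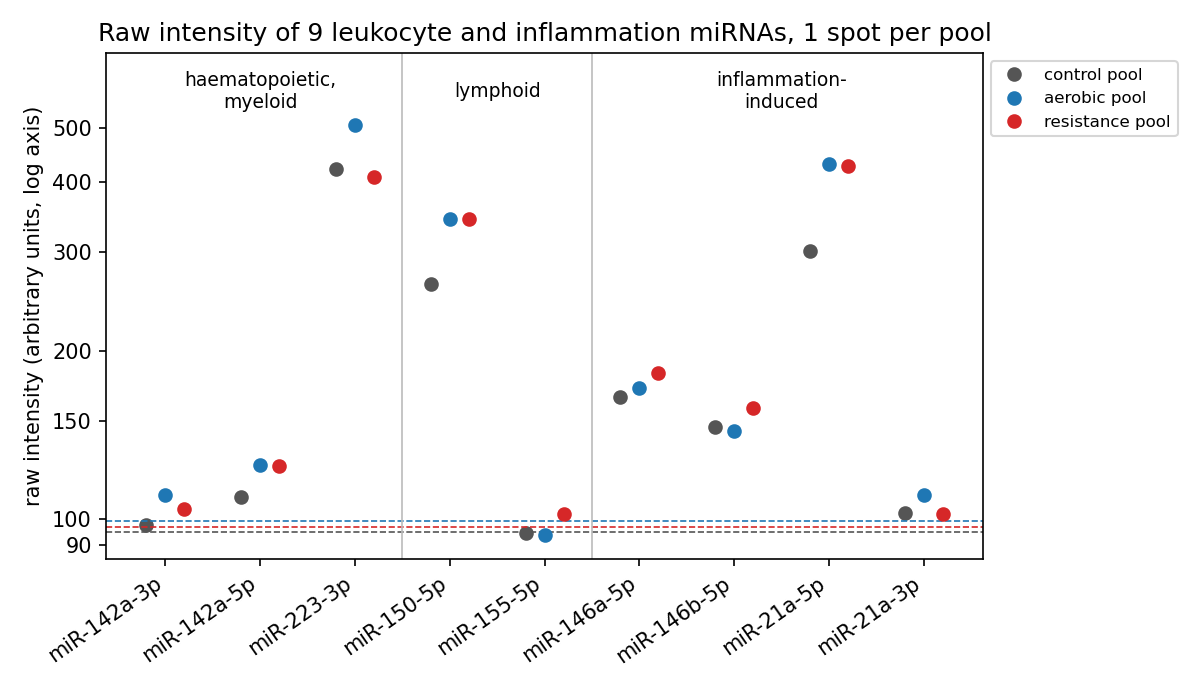
Raw intensity (arbitrary units, log axis) of the 9 miRNAs, with 1 point for each pool. Dashed lines mark the detection threshold of each array in the colour of its pool. miR-223-3p, miR-21a-5p and miR-150-5p lie far above the thresholds, and miR-155-5p passes its threshold in the resistance pool alone.

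Among the haematopoietic and myeloid miRNAs, mmu-miR-223-3p was nearly level across the pools. Its spot read 422.4 for the control pool, 504.9 for the aerobic pool and 408.5 for the resistance pool (raw intensity). After normalization the log2 intensities were 8.67, 8.69 and 8.61 in the same order, a range of 0.08. The aerobic pool differed from control by 0.01 and the resistance pool by -0.06, both inside spot scatter. In the authors' table both differences were -0.16. Without scaling between arrays miR-223-3p stood 0.29 higher in the aerobic pool than in control, and the median of all compared miRNAs stood 0.20 higher.

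Both arms of miR-142a were dimmer. miR-142a-5p read 109.6 in caged controls, 124.8 after aerobic and 124.6 after resistance exercise. It stood 0.13 above control in the aerobic pool and 0.25 above control in the resistance pool, within the scatter of the spike spots. These values depended on the background correction, and over the 7 ways of processing they ran from 0.10 to 0.47 and from 0.22 to 0.81. With an offset of 0, with the blank mean subtracted and in the authors' table, both passed the spike limit. The spot exceeded the blanks by 10 SD on every array. Neither difference passed the S-Probe7 limit, 0.99 with an offset of 0 and 1.22 with the blank mean subtracted, as in the authors' table. miR-142a-3p, the arm on the other side of the hairpin, read 97.5 in caged controls, 110.5 after aerobic and 104.0 after resistance exercise. Its normalized differences from control were 0.17 and 0.13. In the authors' table its aerobic fold was 2.30 (a log2 difference of 1.20) and its resistance fold 1.83 (0.87). Over the 7 ways of processing the differences ran from 0.12 to 1.20 and from 0.10 to 0.98. However, the spot stayed under 10 blank SDs on every array. With the blank mean subtracted, as in that table, repeats of S-Probe7 alone gave a limit of 1.22. The reverse-strand copy, miR-142b, lies opposite the 3p arm and was not detected on any array, with raw intensities from 87.6 to 89.0. It was named after its value had been seen, as a check on related sequences.

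The lymphoid miRNA mmu-miR-150-5p was brighter in both exercise pools than in control on the raw scale. It read 263.0 in caged controls, 343.4 after aerobic and 343.2 after resistance exercise. The exercise pools were thus almost equal before scaling. After normalization the aerobic pool stood 0.13 above control and the resistance pool 0.34, a fold of 1.26 just past the spike limit and inside that of S-Probe7. Over the 7 ways of processing the aerobic difference ran from 0.08 to 0.45 and the resistance difference from 0.34 to 0.46. The other arm, miR-150-3p, read 146.7, 169.7 and 149.1 in the same order. It differed from control by 0.05 and 0.01.

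mmu-miR-155-5p, the activation-induced lymphoid member, was close to background. It read 94.3 in control and 93.6 in aerobic plasma, neither of them detected, and 101.9 in resistance plasma, where it was detected. Its lower bound in the resistance pool was at least 1.11-fold higher than control and at least 1.09-fold higher than the aerobic pool. Both bounds lie inside spot scatter. The other arm, miR-155-3p, was detected on all arrays at 106.2, 108.3 and 106.1. It differed from control by -0.07 in the aerobic and -0.03 in the resistance pool.

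In the inflammation-induced group mmu-miR-21a-5p had the widest range of all members, 0.60 on the log2 scale. It read 301.1 in caged controls, 431.0 after aerobic and 427.3 after resistance exercise. Both exercise pools were brighter than control, and on the raw scale they were nearly equal. Normalized log2 intensities were 8.17, 8.43 and 8.77 in the same order. The resistance pool stood 0.60 above control, a fold of 1.52. It was past the limits of the spike spots and of S-Probe7 (3.89% of all miRNAs compared passed the latter upwards), inside the 0.77 of Negative Control 1, and ranked 22 from the top of 1336 miRNAs compared. The aerobic pool stood 0.27 above control, inside the spike limit. Across 7 ways of processing, the resistance difference ran from 0.52 to 0.72 and the aerobic difference from 0.22 to 0.58.

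The passenger arm, miR-21a-3p, did not share this pattern. It read 102.7 in caged controls, 110.3 after aerobic and 102.0 after resistance exercise and never exceeded the blanks by 10 SD. Its differences from control were 0.05 and -0.04, and the latter was -0.39 in the authors' table. The related miR-21b and miR-21c, of which miR-21c has the seed of miR-21a-5p, were not detected on any array, at raw intensities from 88.2 to 91.8. They were also named after their values had been seen.

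The pair that shares a seed, NF-κB-induced miR-146a-5p and its relative miR-146b-5p, differed from control by less than spot scatter at the main processing. miR-146a-5p read 165.1 in caged controls, 171.8 after aerobic and 182.3 after resistance exercise. miR-146b-5p read 145.8, 143.8 and 157.8 in the same order. The resistance pool was the brightest for both. Normalized, they stood at -0.16 (miR-146a-5p) and -0.23 (miR-146b-5p) in the aerobic pool against control, and at 0.11 and 0.12 in the resistance pool. None of these passed the spike limit. The aerobic differences depended on the processing. Without scaling between arrays their signs turned, to 0.10 and 0.00, whereas in the authors' table they were -0.36 and -0.55, both past the spike limit. miR-146b-5p also passed it at -0.43 with an offset of 0 and at -0.49 with the blank mean subtracted. None of these values passed the S-Probe7 limit, 0.99 with an offset of 0 and 1.22 with the blank mean subtracted, as in the authors' table. Their 3p arms, miR-146a-3p and miR-146b-3p, were not detected on any array, nor was miR-223-5p.

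**Figure D2:**
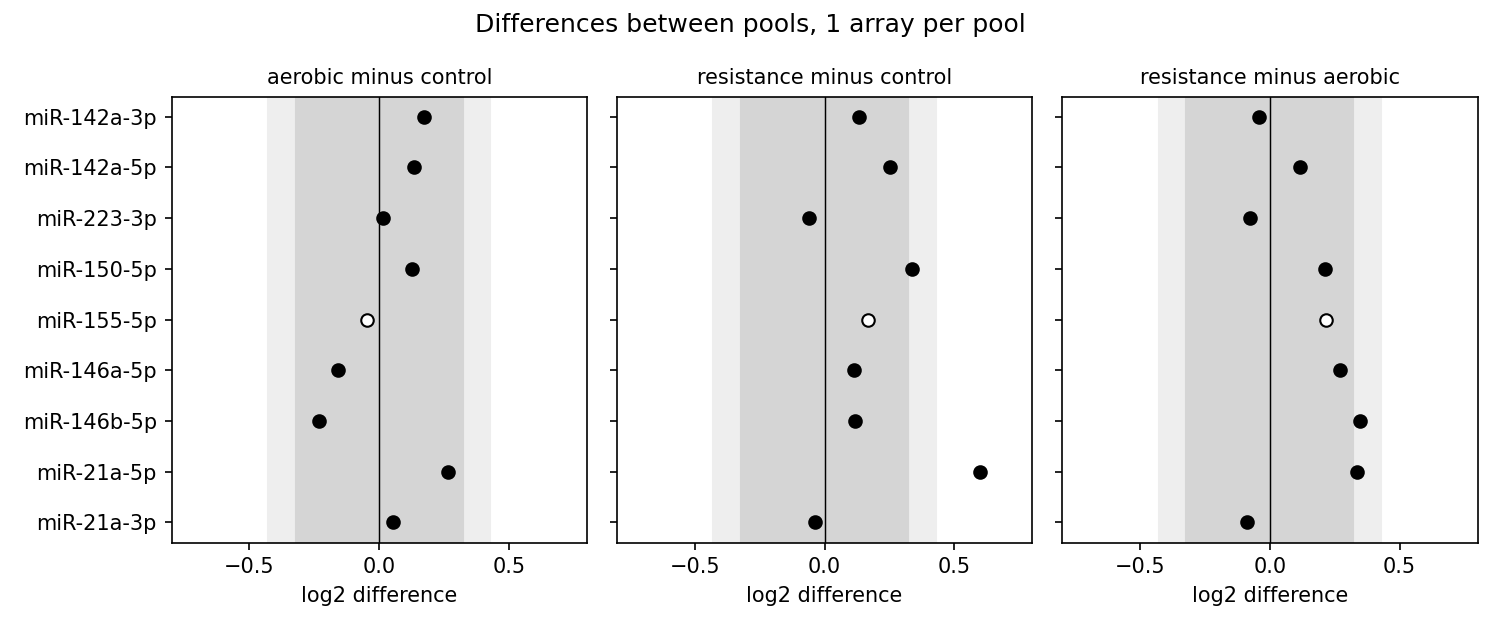
Log2 differences of normalized intensity for each miRNA, with 1 panel per comparison. Dark grey marks 2 SD of a difference between spike-in spots (0.32), light grey that between S-Probe7 spots (0.43), and the open circle is miR-155-5p, not detected on both arrays. Only miR-21a-5p in resistance minus control (0.60) lies outside both bands.

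In the comparison of aerobic exercise with control, 8 members were detected on both arrays, of which 6 were higher and 2 lower. Over all 1321 miRNAs compared 642 were higher and 658 lower, and 276 of the 490 numbered under 1000 were higher. Past the spike limit were 0 members higher and 0 lower, where over all miRNAs 3.79% were higher and 2.04% lower by that much (6.33% higher among those numbered under 1000). The members' median was 0.09 against 0.00 over all miRNAs. The haematopoietic and myeloid members had a median of 0.13 and ranged from 0.01 to 0.17. The inflammation-induced members ranged from -0.23 to 0.27 and so overlapped them.

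In the comparison of resistance exercise with control, 6 of 8 members were higher and 2 lower. Over all 1336 miRNAs compared 591 were higher and 726 lower, and 292 of the 502 numbered under 1000 were higher. Past the spike limit were 2 members (miR-21a-5p and miR-150-5p) higher and 0 lower, where the background was 5.61% higher and 3.22% lower over 1336 miRNAs. Among the 502 compared miRNAs numbered under 1000, as all members are, 11.4% were higher by that much. The members' median was 0.13, against -0.01 over all miRNAs and 0.02 over those numbered under 1000. Haematopoietic and myeloid members ranged from -0.06 to 0.25 and inflammation-induced members from -0.04 to 0.60, so these groups overlapped here too. The lymphoid group had only miR-150-5p to compare.

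Between the exercise pools, 5 of 8 members were higher and 3 lower after resistance than after aerobic exercise. Over all 1307 miRNAs compared 609 were higher and 675 lower, and 277 of the 487 numbered under 1000 were higher. miR-146b-5p (0.35) and miR-21a-5p (0.33) passed the spike limit, against a background of 1.91% higher over 1307 miRNAs and 3.7% over those numbered under 1000, and 0 members were lower by that much where the background was 1.3%. miR-146a-5p followed with 0.27 and miR-150-5p with 0.21. These values rest on scaling. Without it miR-21a-5p stood at -0.02 and miR-150-5p at -0.01, and scaled to the spikes they stood at 0.06 and 0.07. miR-146b-5p was positive under all 7 ways of processing, from 0.15 to 0.72, but was inside the spike limit without scaling (0.15) and scaled to the spikes (0.23). miR-146a-5p ran from 0.08 to 0.56.

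No member reached a 2-fold difference in any comparison at the main processing. Over all miRNAs 0.0% were 2-fold higher and 0.227% lower in aerobic against control plasma. The shares were 0.225% and 0.0749% for resistance against control, and 0.153% and 0.0% for resistance against aerobic.

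Setting the difference of 1 member against that of another cancels most of the brightness of the whole array. This was done for 8 pairs of lineage or arm partners in the 3 comparisons, for which 2 SD of spot scatter is 0.46 from spike spots and 0.61 from S-Probe7. Of the 24 values 3 passed the spike limit, all for miR-21a-5p in resistance against control. These 3 share the same miR-21a-5p difference of 0.60, so they are not separate results. The pairs were chosen with earlier results known, and no share over other pairs of probes was computed. miR-21a-5p stood 0.66 above myeloid miR-223-3p, with a range from 0.62 to 0.79 over the 7 ways of processing. It stood 0.64 above its own passenger arm, from 0.58 to 0.97. Against miR-146a-5p it stood 0.49 higher, from 0.38 to 0.53, and this value did not pass the S-Probe7 limit. The corresponding limit from Negative Control 1, 1.09, was passed by none of them. Lymphoid miR-150-5p stood 0.40 above miR-223-3p, inside the spike limit at the main processing, with a range from 0.40 to 0.62. miR-146a-5p and miR-146b-5p differed from each other by at most 0.08 at the main processing in any comparison.

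The wider immune list held 22 further miRNAs linked to lymphocytes, macrophages and their activation. In resistance against control 13 of 16 compared were higher, 4 past the spike limit and 0 lower past it, with a median of 0.09. Over all miRNAs compared 5.61% were higher by that much, and 11.4% of those numbered under 1000. Higher by any amount were 591 of 1336 miRNAs, and 292 of the 502 numbered under 1000. The largest were miR-27b-3p (0.56) and miR-27a-3p (0.49), which act in lipid metabolism and vessels as well as in T cells. In aerobic against control 9 of 14 were higher and 1 passed the limit, namely miR-27a-3p at 0.33, with a median of 0.10. The background was 3.79% over all miRNAs and 6.33% over those numbered under 1000. Higher by any amount were 642 of 1321 miRNAs, and 276 of the 490 numbered under 1000. miR-10a-5p, found in regulatory T cells, stood at 0.28. Between the exercise pools none of 14 passed the limit, where 1.91% of all miRNAs were higher by that much. There miR-27b-3p stood at 0.31 and miR-125b-5p, a repressor of blood cell differentiation genes, at 0.21.

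The miRNAs listed for red cells and platelets were also higher in the exercise pools. As background, 5.61% of all miRNAs compared were higher past the spike limit in resistance against control (11.4% of those numbered under 1000). In aerobic against control the shares were 3.79% and 6.33%. By any amount, 591 of 1336 miRNAs were higher and 726 lower in resistance against control (292 of the 502 numbered under 1000 were higher). In aerobic against control 642 of 1321 were higher and 658 lower (276 of the 490 numbered under 1000 were higher). Of 10 erythrocyte probes 9 were detected on all arrays. Their summed raw intensity above the blanks was 3940 for the control pool, 7531 for the aerobic pool and 7105 for the resistance pool. Most of it was miR-451a alone, at 2964, 5648 and 5152. The sums in this paragraph are not scaled between arrays. Without scaling, the median of all miRNAs compared stood 0.20 higher in the aerobic pool than in control. In resistance against control all 9 were higher, 7 past the spike limit, with a median of 0.50. In aerobic against control all 9 were higher and 4 passed it, with a median of 0.26. The 7 probes on the platelet list were those of miR-126a-3p, miR-126a-5p, miR-24-3p, miR-191-5p, miR-26a-5p, miR-103-3p and miR-199a-3p with miR-199b-3p. How much of their signal came from platelets was not tested. All were detected on all arrays, and they summed to 1412, 2186 and 2264 for the control, aerobic and resistance pools. Of these sums miR-24-3p alone gave 813.6, 1185 and 1293. All 7 were higher in both comparisons, 6 past the limit after resistance and 2 after aerobic exercise, with medians of 0.45 and 0.24. The detected members, 8 in control and aerobic and 9 in resistance plasma, summed to 871.3, 1197 and 1112. miR-223-3p, which platelets also carry, stood at -0.06 in resistance against control, from -0.16 to -0.05 over the 7 ways of processing. The part of red cells and platelets in the differences of miR-21a-5p and miR-223-3p was not tested. All 3 liver markers were detected on all arrays and higher in both comparisons, 1 of them past the limit after aerobic exercise (0.68), with medians of 0.20 after aerobic and 0.14 after resistance exercise. Of 7 heart and skeletal muscle probes 4, 3 and 4 were detected in control, aerobic and resistance plasma, and those compared were lower. In aerobic against control 3 of 3 were lower past the limit, with a median of -1.48, where 2.04% of all miRNAs were. In resistance against control 4 of 4 were lower, 2 past the limit, with a median of -0.48, where the background was 3.22%.

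**Figure D3:**
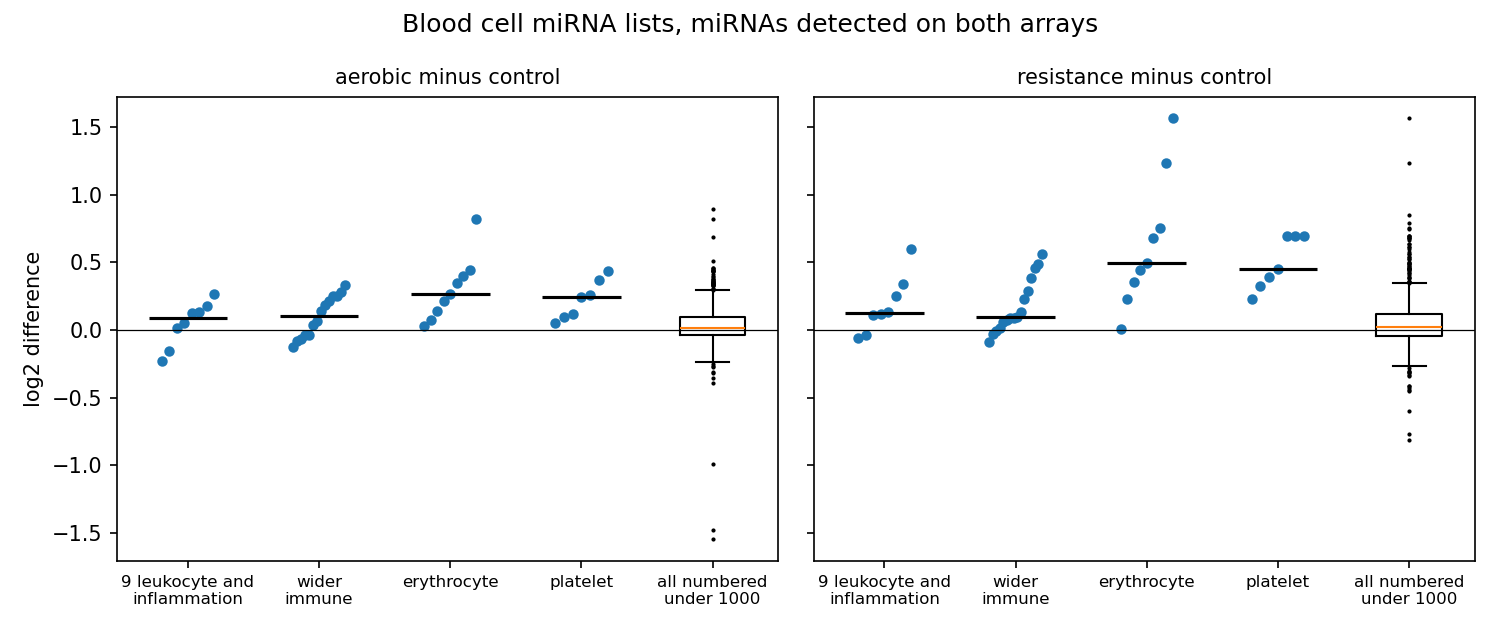
Log2 differences of miRNAs detected on both arrays, for aerobic minus control (left) and resistance minus control (right). Points are miRNAs, bars are list medians, and the box shows the quartiles of all miRNAs numbered under 1000, with whiskers to 1.5 box lengths. In resistance plasma the medians are 0.13 for the 8 leukocyte and inflammation miRNAs compared, 0.50 for the erythrocyte list and 0.45 for the platelet list.

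The miRNAs with patterns most like that of miR-21a-5p were found by the distance between log2 differences in the 2 exercise pools, among 1288 probes detected on all 3 arrays that are not members. The nearest was let-7g-5p, at 0.29 in aerobic and 0.61 in resistance plasma against control, a distance of 0.03. It was followed by miR-30a-5p (distance 0.04), miR-27b-3p (0.04), miR-195a-5p (0.06) and let-7f-5p (0.08). Of these, miR-27b-3p is on the wider immune list.

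**Figure D4:**
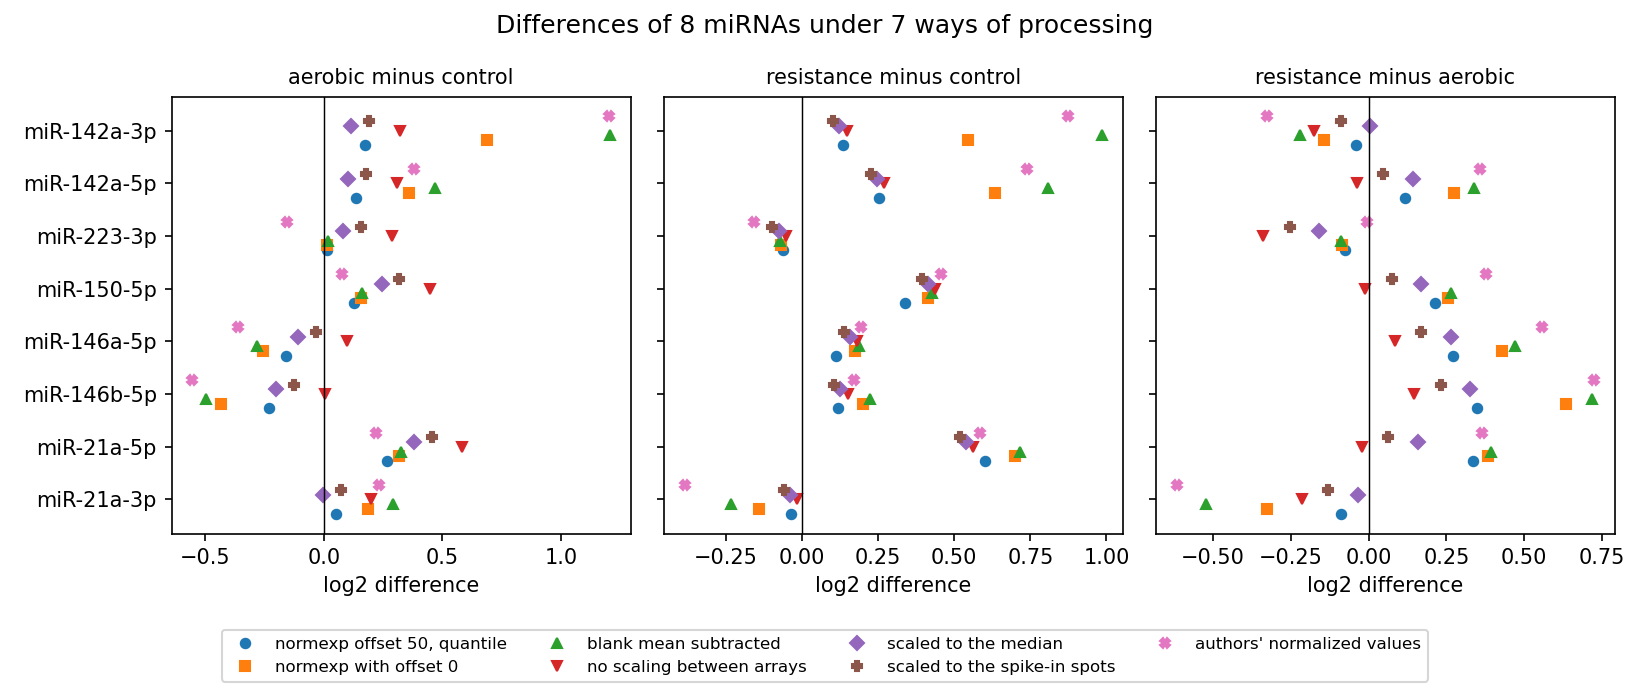
Log2 differences of the 8 miRNAs detected on all arrays under 7 ways of processing, with 1 panel per comparison and 1 symbol per way. miR-21a-5p in resistance minus control stays between 0.52 and 0.72, whereas in resistance minus aerobic it falls to -0.02 without scaling between arrays.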

How the data were processed

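Plasma miRNA was labelled with Cy5 and hybridised to 3D-Gene oligo chips, per the labels' protocols. The tissue and source labels name plasma, but the extraction text speaks of cells, and the series text names a human chip although every miRNA probe carries a mouse name. Plasma was spun at 3000 g and then 16000 g, 10 min each. The deposited scanner files list raw intensity, linear and not normalized, for each of 3200 spots, per the file headers. The authors' normalized intensity, in the same files and the series table, equals raw intensity minus 1 background per array, scaled to a median of 25. Spots near background are empty there. The labels used here do not name the scanner.

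From raw intensities, limma 3.58.1 in R 4.3.3 corrected the background (normexp, offset 50, with the mean of the 896 blank spots after trimming 5% at each end). The 1900 miRNA probes were then quantile normalized on the log2 scale. Detection at 2 SD above the blanks gave 0 differences from the authors' empty cells. It passed 1431, 1364 and 1372 miRNAs on the control, aerobic and resistance array, and 1296 on all of them. This offset shrinks the folds of dim spots. Other offsets, background methods, scalings, detection thresholds and error estimates were tried. The number of arrays limits the precision.

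The members, lists and pairs were chosen with earlier results of these data known. Named were all members, the other arms of their hairpins, the largest differences of the wider immune list and the nearest patterns to the member with the widest range.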

Additional observations from a re-analysis of the deposited data

How the results depend on the processing

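Of 186 single-miRNA values under alternatives, 136 moved by less than the SD of a difference between spike spots, and the others moved further. Among the 136 are 18 values at 10 SD detection and 24 without a detection filter. Those repeat the main value, so they could neither move nor change sign. In 8 of the 186 the sign differed from the main value, 5 without scaling, 2 scaled to the median and 1 in the authors' values. Of these only miR-21a-5p in resistance against aerobic plasma, at -0.022 without scaling, was past the spike limit at the main processing. Members higher past the spike limit in aerobic against control plasma numbered 2 with an offset of 0, 3 with the blank mean subtracted, 2 without scaling, 1 scaled to the median, 1 scaled to the spikes and 2 in the authors' values. The lower ones numbered 1, 1 and 2 with an offset of 0, the blank mean subtracted and the authors' values. For resistance against control, the count of higher members was 4 under each of those 3 settings, 0 with Negative Control 1 scatter and 1 with S-Probe7 scatter, which was chosen after seeing the data. The authors' values gave 1 lower. For resistance against aerobic, higher members numbered 4 with the blank mean subtracted, 0 without scaling, 1 scaled to the median, 0 scaled to the spikes, 5 in the authors' values and 0 with either dim-spot scatter. The lower ones numbered 1 with an offset of 0, 1 with the blank mean subtracted, 1 without scaling and 2 in the authors' values. For these alternatives the share over all miRNAs was computed only for S-Probe7 scatter in resistance against control (3.89% higher). The other counts thus have no background beside them. With an offset of 0 and with the blank mean subtracted the spike limit stayed at 0.32. The S-Probe7 limit there was 0.99 and 1.22. The members' median moved to 0.30 for aerobic against control without scaling. For resistance against control it moved to 0.31 with an offset of 0, 0.32 with the blank mean subtracted and 0.32 in the authors' values. For resistance against aerobic it moved to -0.030 without scaling and 0.36 in the authors' values. Without scaling, the median over all miRNAs was 0.20 in aerobic minus control and -0.19 in resistance minus aerobic. Fewer dim members pass at 10 SD (6 compared). The cause of the other shifts was not tested. No paired analysis was possible because each group has 1 array, and no array could be left out.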
